A study of Danio rerio with 4 samples.

Results

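The Hox genes of the regenerating zebrafish (*Danio rerio*) fin tip were taken as every counted gene whose Ensembl-linked symbol is hox, a cluster letter from a to d and a number from 1 to 13. This gave 48 genes of the 31901 counted. Their levels were compared in 2 genotypes, adults heterozygous for *longfin*, a dominant allele that gives overgrown fins, and their wildtype clutchmates. Both genotypes carried the osteoblast reporter sp7:eGFP. Tissue was taken from regenerating caudal fins at 96 hours after amputation, and it was the GFP-negative part that lies beyond the labelled osteoblasts. Each library held the tissue of 4 fins, with 2 libraries per genotype. The heterozygotes keep 1 wildtype allele, and nothing in the labels says that pools of a genotype came from separate clutches, so p-values here measure only the spread between these pools.

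Hox genes encode homeodomain transcription factors that give cells a position along the body axis and along limbs and fins. They sit in clusters, and within a cluster the genes numbered lowest act towards the head while those numbered 9 to 13 act in the trunk, the tail and the outer parts of appendages. Teleost fish have extra copies of the clusters, marked a and b after the number, because of a genome duplication in their ancestry. In zebrafish, *hoxa13a* and *hoxa13b* are needed for the fin rays of paired fins, and both *hoxc13* copies have been linked to regrowth of the tail fin.

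Reads assigned to genes numbered 19428186 to 23157979 per library, and Hox genes took 0.0558 to 0.0655% of them. Levels are given as CPM, reads scaled to a common library size with TMM factors. CPM is not divided by transcript length, so an order of genes here is an order of reads and not of transcript numbers. Zebrafish names are used where the gene-name table gives one, or where RefSeq lists a single zebrafish gene of that cluster and number. Where the table gives a human-style symbol to a gene with more than 1 zebrafish copy, the symbol is printed with its Ensembl ID. Markers of the tissue were present, with 10 of 11 blastema genes and 4 of 4 basal epidermal genes high enough to be tested. Osteoblast markers were present too, 8 of 9 tested, summing to 2140 and 2510 CPM in longfin and 2290 and 3090 CPM in wildtype tips, while *bglap* had 0 reads. COL10A1 (ENSDARG00000054753) alone gave 1870 and 2200 CPM in longfin and 2020 and 2690 CPM in wildtype tips. SP7, the gene of the reporter, had 45.8 and 57.4 CPM in longfin and 45.4 and 56.1 CPM in wildtype tips. Of 6 nerve and glia markers 1 was tested, their sum lay between 0.756 and 1.8 CPM, and *plp1b* and ISL1 had 0 reads.

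Reads of the fin tip assigned to Hox genes came mostly from the A and C clusters and from the high-numbered end of each cluster. The 11 genes of cluster A summed to 353 and 342 CPM in longfin and 347 and 337 CPM in wildtype tips. The 15 genes of cluster C summed to 258 and 244 CPM in longfin and 220 and 231 CPM in wildtype tips. Cluster B, also with 15 genes, held 19.9 and 18.6 CPM in longfin and 15.8 and 15.8 CPM in wildtype tips. The 7 genes of cluster D held 11.2 and 8.47 CPM in longfin and 8.21 and 9.34 CPM in wildtype tips. Genotypes overlapped in the A and D sums and did not overlap in the B and C sums, which were higher in longfin. For the B sum and the C sum a two-sided exact permutation test gave p = 0.333, the smallest it can give here. Among all genes tested, levels of single genes did not overlap for 39.8%.

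By number, group 13 held 62.1 ± 0.0732% of all Hox reads in longfin and 64.1 ± 1.07% in wildtype tips (SD, n = 2 each). Groups 9, 10, 11 and 12 each held 5.09 to 7.18% on average. Groups 9 to 13 together made up 89.1 and 89.7% of Hox reads in longfin and 89.1 and 89.9% in wildtype tips, and a two-sided exact permutation test gave p = 0.667. With 2 libraries per genotype the smallest p that test can give is 0.333. Most of the remainder lay in group 3, at 56.5 and 48.7 CPM in longfin and 51.4 and 47.5 CPM in wildtype tips.

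**Figure D1:**
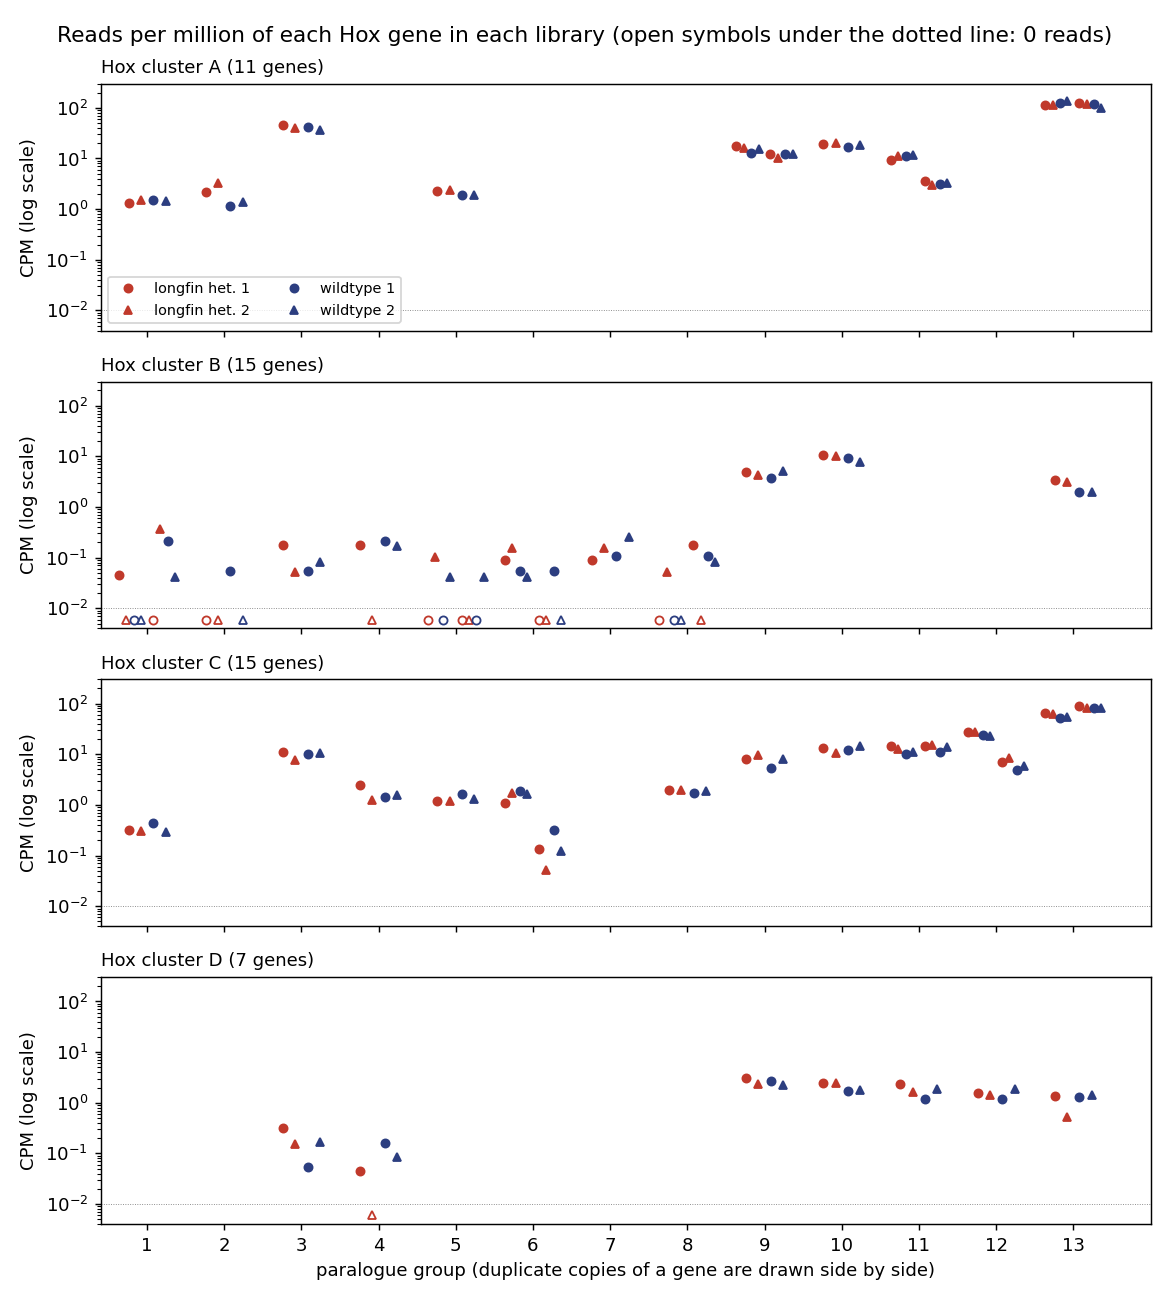
CPM of each of the 48 Hox genes on a log axis against paralogue group (1 to 13), with a panel per cluster. Points are single libraries, longfin heterozygous left of wildtype, and open symbols under the dotted line mark libraries with 0 reads. In clusters A and C group 13 has the most reads and group 3 stands above its neighbours, cluster B is near 0 up to group 8, and cluster D stays at or below 3.15 CPM.

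**Figure D2:**
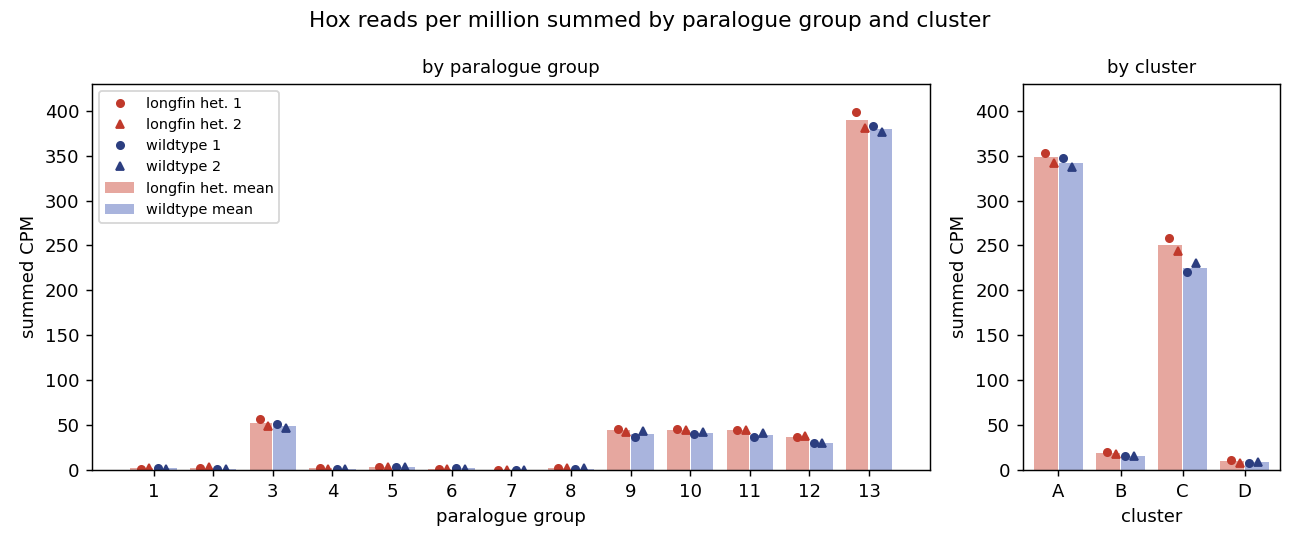
Summed CPM by paralogue group (left) and by cluster (right). Bars are means of 2 libraries and points are the libraries, longfin heterozygous left of wildtype. Group 13 stands at 376 to 399 CPM in all 4 libraries, no other group exceeds 56.5 CPM, and the genotypes do not overlap for clusters B and C.

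Group 13 genes specify the outermost part of limbs and fins, and 4 of its 6 members were the 4 Hox genes with the most reads. *hoxa13b* had 115 and 115 CPM in longfin and 127 and 134 CPM in wildtype tips. *hoxa13a* had 125 and 119 CPM in longfin and 117 and 100 CPM in wildtype tips. Neither copy overlapped between genotypes, and they lay on opposite sides, *hoxa13b* lower in longfin with a log2 fold change of -0.19 (95% interval -0.38 to 0.01) and *hoxa13a* higher with 0.17 (-0.08 to 0.41). Both intervals include 0, and over all genes tested the genotypes did not overlap for 39.8%.

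The HOXC13 copies, linked to tail fin regrowth, came next. HOXC13 (ENSDARG00000113877) had 88.2 and 83.2 CPM in longfin and 83.2 and 82.6 CPM in wildtype tips. HOXC13 (ENSDARG00000070353) had 65.7 and 61.2 CPM in longfin and 51.9 and 55.5 CPM in wildtype tips. The log2 fold change of the first of these copies was 0.05 (95% interval -0.15 to 0.25), and that of the other was 0.24 ± 0.09 (SE), with an unadjusted p of 0.038 (adjusted 0.483, edgeR's quasi-likelihood test with Benjamini-Hochberg adjustment).

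The remaining members of group 13 had far fewer reads. *hoxb13a*, which acts in the tail bud and spinal cord of vertebrate embryos, had 75 and 61 reads in longfin and 37 and 48 reads in wildtype libraries. These were 3.37 and 3.13 CPM in longfin and 2 and 2 CPM in wildtype tips, without overlap. Its log2 fold change was 0.70 ± 0.25 (SE; unadjusted p = 0.0267, adjusted p = 0.445 in edgeR). *hoxd13a*, a partner of the *hoxa13* genes in paired fins, had 1.39 and 0.514 CPM in longfin and 1.3 and 1.42 CPM in wildtype tips, so the longfin pools were farther apart than the genotypes. Its log2 fold change was -0.48, and -1.40 without longfin heterozygous replicate 1. That fit has 1 longfin library, with 10 reads of the gene, so no spread between longfin pools enters it.

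Group 12 had 3 counted genes, and its sum was 36.9 and 37.7 CPM in longfin against 29.8 and 30.4 CPM in wildtype tips. Its share of Hox reads was 5.94 ± 0.286% in longfin and 5.09 ± 0.0663% in wildtype tips, a non-overlapping pattern for which the exact permutation test gave p = 0.333, the smallest it can give. HOXC12 (ENSDARG00000070352) had 28.1 and 27.7 CPM in longfin and 23.7 and 22.6 CPM in wildtype tips. HOXC12 (ENSDARG00000103133) had 7.15 and 8.58 CPM in longfin and 4.91 and 5.96 CPM in wildtype tips. For these copies the log2 fold changes were 0.27 ± 0.10 and 0.52 ± 0.20 (SE), with unadjusted p-values of 0.036 and 0.0335 and adjusted p-values of 0.475 and 0.469 in edgeR. The third gene, *hoxd12a*, stood at 1.51 CPM on average in both genotypes.

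Group 11 genes mark the middle segment of tetrapod limbs. HOXC11 (ENSDARG00000070351) had 14.7 and 12.8 CPM in longfin and 9.94 and 11.1 CPM in wildtype tips. Its copy *hoxc11b* had 14.6 and 15.5 CPM in longfin and 11 and 13.6 CPM in wildtype tips. Both copies were higher in each longfin library than in either wildtype library. The log2 fold changes were 0.39 ± 0.15 (SE; unadjusted p = 0.035, adjusted p = 0.471 in edgeR) and 0.29 ± 0.15 (unadjusted p = 0.103). The HOXA11 copies had log2 fold changes of -0.15 and 0.06. The first of these values is that of HOXA11 (ENSDARG00000007009), which was lower in longfin without overlap. Over all genes tested, 20% were higher in longfin without overlap and 19.8% were lower. *hoxd11a* had a log2 fold change of 0.36, with overlapping genotypes.

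Group 10 and group 9 genes act in the trunk and the inner limb. *hoxa10b* had 19.7 and 20.6 CPM in longfin and 16.8 and 18.6 CPM in wildtype tips, without overlap, and its log2 fold change was 0.18 (95% interval -0.11 to 0.47). *hoxc10a* had 13.1 and 10.8 CPM in longfin and 12.4 and 14.3 CPM in wildtype tips, with overlapping genotypes. *hoxa9b* had 17.7 and 16 CPM in longfin and 13 and 15.6 CPM in wildtype tips, while its copy *hoxa9a* had 12.1 and 10.1 CPM in longfin and 12 and 12.1 CPM in wildtype tips. Their log2 fold changes were 0.23 and -0.12, with unadjusted p-values of 0.153 and 0.443 in edgeR. For *hoxc9a*, mean CPM was 8.93 ± 1.31 (longfin) and 6.67 ± 1.95 (wildtype; SD, n = 2 each), and the genotypes overlapped. The log2 fold change of *hoxc9a* was 0.4 (95% interval -0.16 to 0.96). In cluster B, *hoxb9a* and *hoxb10a* averaged 4.65 and 10.5 CPM in longfin and 4.40 and 8.56 CPM in wildtype tips, and with *hoxb13a* they were the whole of that cluster's tested genes.

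Among groups 1 to 8, 9 of 25 genes were tested, against 23 of 23 in groups 9 to 13. *hoxa3a*, of the group that acts in the pharyngeal arches and hindbrain, had 45 and 40.7 CPM in longfin and 41.2 and 36.8 CPM in wildtype tips, which placed it after the 4 leading genes of group 13 in the order of reads. In RefSeq its gene model overlaps those of *hoxa4a*, *hoxa5a* and *evx1*. The other group 3 gene named here, *hoxc3a*, averaged 9.41 ± 2.27 CPM in longfin against 10.2 ± 0.27 CPM in wildtype libraries (SD, n = 2 each). Its model overlaps 5 other Hox genes from *hoxc4a* to *hoxc9a*. Whether reads of these genes come from a group 3 transcript was not tested. Other Hox genes also overlap other gene models in RefSeq. *hoxa13a*, *hoxa9a*, *hoxa5a* and *hoxa1a* also overlap *evx1*, and *hoxa13b*, *hoxa10b*, *hoxa9b* and *hoxa2b* overlap a long noncoding RNA. *hoxa11a* overlaps *evx1* and *hoxa11b* overlaps that RNA, and which HOXA11 genes printed here these are was not assigned. *hoxc13b* and *hoxc12b* overlap *calcoco1b*, and which HOXC13 and HOXC12 genes printed here these are was not assigned. The effect of these overlaps on the counts was not tested. Without *hoxa3a* and *hoxc3a*, a setting added after the data were seen, groups 9 to 13 held 97.5% of Hox reads in longfin and 97.6% in wildtype tips. Leaving out genes of group 3 can only raise this share, and overlapping genes of groups 9 to 13 were kept.

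*hoxa2b*, a patterning gene of the hindbrain and of neural crest cells in the pharyngeal arches, had 48 and 63 reads in longfin and 21 and 33 reads in wildtype libraries. As CPM it had 2.16 and 3.24 in longfin and 1.13 and 1.38 in wildtype tips, without overlap. Its log2 fold change of 1.07 ± 0.34 (SE; 95% interval 0.26 to 1.88) was the largest among tested Hox genes, and edgeR gave it an unadjusted p of 0.0167 and an adjusted p of 0.384. With a library left out the value lay between 0.77, without longfin heterozygous replicate 2, and 1.35, without longfin heterozygous replicate 1. The other tested genes of groups 1 to 8 were *hoxa1a*, *hoxa5a*, *hoxc4a*, *hoxc5a*, HOXC6 (ENSDARG00000070343) and *hoxc8a*, which averaged 1.2 to 2.35 CPM in longfin and 1.46 to 1.91 CPM in wildtype tips.

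Cluster B was nearly silent below group 9. Its 12 genes there, which pattern the hindbrain and anterior trunk in embryos, shared 17 and 17 reads in longfin and 16 and 18 reads in wildtype libraries. Across all clusters 16 Hox genes fell below the filter on low counts, and together they had 35 and 27 reads in longfin and 34 and 34 reads in wildtype libraries. Of these, 10 had fewer than 10 reads over the 4 libraries. They were *hoxb1a*, *hoxb2a*, *hoxb3a*, both HOXB5 genes, HOXB6 (ENSDARG00000010630), *hoxb6b*, HOXB8 (ENSDARG00000056027), *hoxb8b* and *hoxd4a*. The other 6, *hoxb1b*, *hoxb4a*, *hoxb7a*, *hoxc1a*, HOXC6 (ENSDARG00000101954) and *hoxd3a*, had at most 28 reads. A gene with 0 reads in a library could still be present at up to 0.125 to 0.162 CPM there, the level of 3 reads, which covers counting error only.

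Genes of cluster D, which with cluster A pattern paired fins, were detected at low levels. From *hoxd9a* to *hoxd13a* the 5 genes averaged 0.954 to 2.73 CPM in longfin and 1.36 to 2.43 CPM in wildtype tips. Their log2 fold changes lay between -0.48 and 0.49, and 1 of the 5, *hoxd10a*, did not overlap between genotypes, at 2.43 and 2.41 CPM in longfin and 1.67 and 1.75 CPM in wildtype tips. Over all genes tested, genotypes did not overlap for 39.8%. None of the 5 had an unadjusted p under 0.05, beside 9.48% of all genes, and the lowest was 0.114 in edgeR.

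No Hox gene passed the genotype test. Of 32 tested, 0 had an adjusted p under 0.05 in edgeR's quasi-likelihood test, and DESeq2 and limma voom also called 0. Over all genes tested 0.403% were called, 0.109% as higher and 0.294% as lower in longfin. At an unadjusted p under 0.05 there were 6 Hox genes, 18.8% of those tested, against 9.48% of all genes. All 6 were higher in longfin, against 3.66% of all genes on that side and 5.82% on the lower side, and 4 of them belong to groups 11 to 13 of cluster C. That count was 3 when longfin heterozygous replicate 1 was left out, of which *hoxd13a* was lower, and 1 when longfin heterozygous replicate 2 was, beside 6.67 and 6.65% of all genes. Leaving out wildtype replicate 1 gave 1 and leaving out wildtype replicate 2 gave 6, beside 8.12 and 9.22% of all genes. In these fits the lone library of a genotype is assumed to vary like the pair of the other. In DESeq2 it was 1, *hoxa2b*, or 3.12% of tested Hox genes against 5.83% of all genes.

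Log2 fold changes were above 0 in 22 of 32 tested Hox genes (68.8%), against 49.7% of all genes tested. Their median was 0.17, beside -0.0015 over all genes. By cluster the median was 0.14 in A, 0.31 in B, 0.24 in C and 0.19 in D. Genotypes did not overlap for 18 of the 32 genes, 15 higher and 3 lower in longfin, and this 56.2% stands beside 39.8% over all genes, of which 20% were higher and 19.8% lower. The 3 lower genes were *hoxa13b*, HOXA11 (ENSDARG00000007009) and *hoxc5a*, named after their values were seen. Without longfin heterozygous replicate 1 the median was 0.07, and leaving out wildtype replicate 1 gave 0.11. In the plot of fold changes the intervals of 26 genes include 0.

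**Figure D3:**
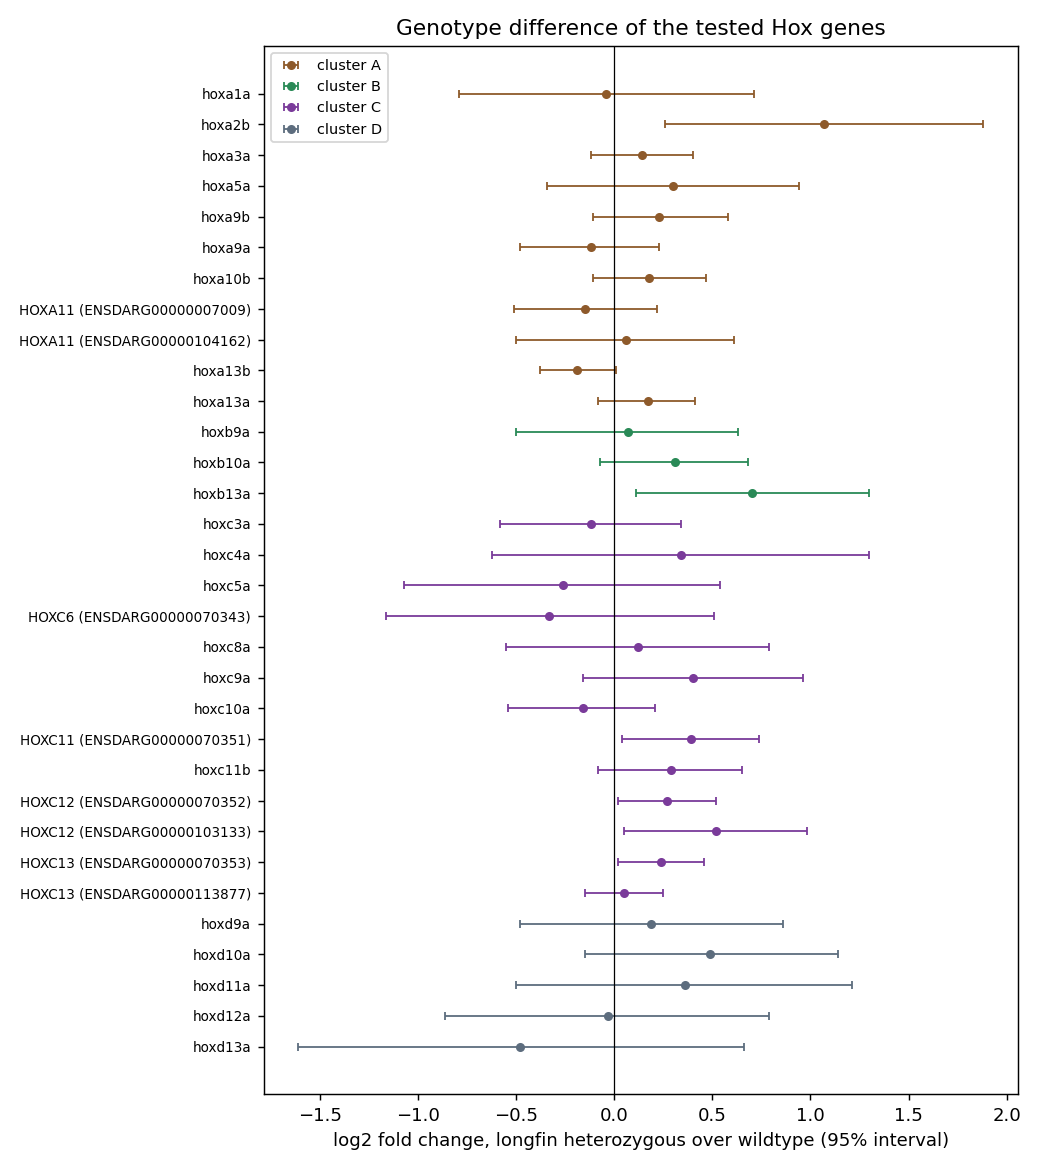
Log2 fold change of longfin heterozygous over wildtype for the 32 tested Hox genes, with 95% intervals from edgeR, ordered by cluster and paralogue group and coloured by cluster. Points range from -0.48 (*hoxd13a*) to 1.07 (*hoxa2b*), 22 lie above 0, and intervals of 6 genes lie wholly above 0.

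Summed over all 48 genes, Hox CPM was 642 and 613 in longfin and 590 and 593 in wildtype tips. The means were 628 ± 20.3 and 592 ± 1.85 CPM (SD, n = 2 each), a log2 ratio of 0.0852, and the two-sided exact permutation test gave p = 0.333, the smallest it can give. Groups 9 to 13 of cluster C accounted for most of the gap, at 240 and 230 CPM in longfin and 202 and 214 CPM in wildtype tips, while the same groups of cluster A stood at 302 and 294 CPM in longfin and 301 and 295 CPM in wildtype tips. In bulk tissue a change in the number of cells of a type and a change in RNA per cell cannot be told apart. Markers of some other compartments also differed between these libraries. The 5 superficial epidermal markers, of which 4 were lower without overlap, summed to 3890 and 4270 CPM in longfin and 5030 and 4870 CPM in wildtype tips. The 4 markers of actinotrichia-forming cells, of which 3 were tested and 2 of these were higher without overlap, summed to 16700 and 15000 CPM in longfin and 13700 and 12400 CPM in wildtype tips. The 11 blastema markers summed to 8810 and 10800 CPM in longfin and 8350 and 10400 CPM in wildtype tips, with overlap, and FN1 (ENSDARG00000006526) alone gave 4710 and 6390 CPM in longfin and 4780 and 6510 CPM in wildtype tips. Of the 10 blastema markers tested, 5 were higher and 1 lower without overlap, and their median log2 fold change was 0.21. Over all genes tested 39.8% did not overlap. None of these markers passed the adjusted test in edgeR, where 9.48% of all genes had an unadjusted p under 0.05. Below that value were 3 superficial markers, all lower, 1 basal and 1 pigment marker, both lower, and 1 actinotrichia marker, higher. With 5 blastema markers, 4 higher and 1 lower, these are 60%, 25%, 20%, 33.3% and 50% of those tested. Osteoblast, red blood cell, macrophage and neutrophil, vessel, muscle, and nerve and glia markers had 0 below it. Those lists had 8, 3, 4, 3, 2 and 1 genes tested, in that order. Counts of 0 among so few genes lie near the share over all genes. The part of these marker levels in the Hox values was not tested.

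Duplicate copies of a Hox gene can be compared within a library by their ratio, whose difference between genotypes does not depend on transcript length. There were 6 genes with both copies tested. The log2 ratio of *hoxa13b* to *hoxa13a* was -0.12 and -0.05 in longfin and 0.12 and 0.42 in wildtype tips, so that *hoxa13a* had the more reads in longfin and *hoxa13b* in wildtype. The log2 ratio of *hoxa9b* to *hoxa9a* was 0.56 and 0.67 in longfin and 0.12 and 0.36 in wildtype tips. The log2 ratio of HOXC13 (ENSDARG00000113877) to HOXC13 (ENSDARG00000070353) was 0.42 and 0.44 in longfin and 0.68 and 0.57 in wildtype tips. Genotypes did not overlap in these 3 ratios, with longfin minus wildtype differences of -0.36, 0.37 and -0.19. For each the exact permutation test gave p = 0.333, the smallest it can give, or 0.666 after Benjamini-Hochberg adjustment over the 6 ratios. The HOXC12, HOXC11 and HOXA11 ratios overlapped. Over all genes tested, levels of single genes did not overlap between genotypes for 39.8%. No such share was computed for ratios of copies, so the 3 of 6 ratios have no background here. Reads that fit both copies equally may not have been assigned to either, and 28.7 to 41.9% of a library's reads were set aside as not unique. Whether the overlaps with other gene models described above shift these ratios was not tested.

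**Figure D4:**
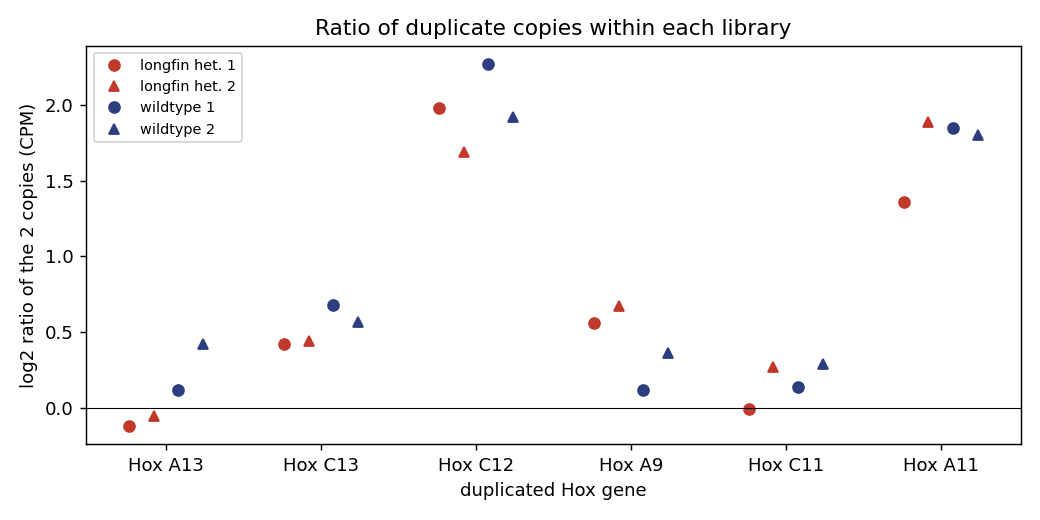
Log2 ratio of CPM between the duplicate copies of 6 Hox genes in each library, the copy with more reads over all libraries divided by the other, with longfin heterozygous left of wildtype. The points of the genotypes separate for Hox A13, C13 and A9, and for A13 they lie on opposite sides of 0.

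Hox proteins bind DNA together with Pbx, Meis and Pknox proteins of the TALE homeodomain class. Of 14 such cofactor genes 11 were tested and 0 passed, with 0 at an unadjusted p under 0.05 in edgeR and 0 calls in DESeq2 or limma voom. Over all genes 0.403% passed and 9.48% had an unadjusted p under 0.05, so a count of 0 among 11 genes lies near that background. The 3 with the most reads were *pbx4*, *pbx2* and PKNOX1 (ENSDARG00000018765), with log2 fold changes of 0.10, -0.17 and 0.00. The cofactor list summed to 258 and 265 CPM in longfin and 258 and 275 CPM in wildtype tips, and its median log2 fold change was -0.06. The Meis2 genes averaged at most 0.838 CPM in longfin against 1.12 CPM in wildtype libraries. The Meis1 genes had more reads. MEIS1 (ENSDARG00000012078) averaged 27.8 CPM in longfin and 31.9 CPM in wildtype libraries, and *meis1a* averaged 4.77 and 3.68 CPM.

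The 36 regulators of Hox genes were taken from caudal, even-skipped, retinoic acid, Polycomb and trithorax genes, with *gdf11*. Of these regulators 31 were tested and 0 passed in edgeR. At an unadjusted p under 0.05 there were 5, or 16.1% of those tested beside 9.48% of all genes, with 3 higher and 2 lower in longfin, and limma voom called 0. DESeq2 called 1, CYP26C1, which encodes an enzyme that breaks down retinoic acid, with an adjusted p of 0.0363 there and 0.46 in edgeR, where its log2 fold change was 0.81. It is named after its value was seen. DESeq2 called 291 of all 18366 genes tested. The 3 regulators with the most reads were KDM6B, CYP26A1 and *kdm6bb*. KDM6B, which encodes a demethylase that removes a repressive histone mark, averaged 257 CPM in longfin against 345 CPM in wildtype libraries, with a log2 fold change of -0.42 (95% interval -0.66 to -0.19), and edgeR gave it an unadjusted p of 0.00411, adjusted to 0.213. CYP26A1 and *kdm6bb* had log2 fold changes of -0.48 and 0.05.

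Of 23 patterning genes that work with Hox genes in fins and limbs, 15 were tested and 0 passed in edgeR, DESeq2 or limma voom. In edgeR 4 had an unadjusted p under 0.05, or 26.7% of those tested beside 9.48% of all genes, with 2 higher and 2 lower in longfin. The 3 with the most reads were the homeobox genes *msx3* and *msx1b* and the zinc finger gene SALL1 (ENSDARG00000074319). Their log2 fold changes were 0.28, 0.26 and 0.18, with adjusted p-values of 0.693, 0.46 and 0.632. Both *msx* genes are also among the blastema markers, so these lists are not separate. The other SALL1 gene, ENSDARG00000075891, had a log2 fold change of -0.62, and -0.89 without wildtype replicate 2. That fit has 1 wildtype library, so no spread between wildtype pools enters it. The paired-fin genes TBX4, TBX5 and *tbx5b* had 0 reads in every library.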

How the data were processed

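RNA was sequenced from 4 libraries, 2 per genotype, grouped by the genotype in the sample labels. RNA was isolated with TRIzol and, per the labels' protocols, libraries were made with a stranded mRNA kit. The values deposited by the authors are raw counts of reads for each Ensembl gene, made with TopHat2 and HTSeq on GRCz11 (danRer11), per the submitters' processing notes. The sources used here do not give tool versions, annotation release, strand setting or overlap mode, so overlapping genes are uncertain. The unnamed total and 5 HTSeq classes were left out. Libraries of a genotype differed beyond sampling noise (chi-square over its degrees of freedom, 19 for longfin and 27.6 for wildtype). Over 34 Hox genes in longfin and 33 in wildtype libraries the values were 2.12 and 2.75.

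Gene symbols were looked up by Ensembl ID. Where a listed name matched only a human-style symbol, every counted gene with that symbol was taken, so some lists hold copies not planned. RefSeq of GRCz12tu, another build, was used for names and overlaps only. It lists 49 Hox genes, of which *hoxa4a* was matched to no counted gene and is not analysed here. No transcript lengths were used.

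Counts were fitted in R 4.3.3 with edgeR 4.0.16 (filterByExpr with minimum count 10 and minimum total 15, TMM, glmQLFit with robust fitting, glmQLFTest, two-sided) over all 18366 genes passing the filter, with Benjamini-Hochberg adjustment over all of them and a threshold of 0.05. The steps were tested on simulated data. CPM is scaled by TMM, a positive log2 fold change means higher in longfin, and its SE was taken as its size over the root of the F statistic. DESeq2 1.42.0, limma 3.58.1 (voom), other scalings, no filter, a replicate block and leaving out each library were tried.

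The Hox members, the gene lists and the tests were chosen with earlier results of these data known. Values in every library are given for Hox genes past an unadjusted p of 0.05, the 12 with the highest CPM and their copies. *hoxd10a* and *hoxd13a* were added to these after their values were seen. Others are given as averages, ranges or fold changes, or named to account for every Hox gene. From the lists of cofactors, regulators and partners the 3 genes with the highest CPM are named. Other members named in the text, such as the Meis1 and Meis2 genes, were added to these.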

Additional observations from a re-analysis of the deposited data

How the results depend on the processing

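The count of Hox genes past the adjusted threshold was 0 under every alternative run that kept all 4 libraries. Log2 fold changes of the 15 Hox genes chosen by the naming rule kept their direction in all 150 values, although *hoxa9a* rounded to 0.00 without longfin heterozygous replicate 2. All these fits reuse the same libraries, and most of these genes did not overlap between genotypes. Some were also chosen by their unadjusted p in these data. Their direction could therefore hardly change, and the 150 values are not separate support. The count over all genes, 74, was 219 with library size only, 130 with no low count filter, 291 with DESeq2 and 1 to 163 with a library left out. Hox genes at an unadjusted p under 0.05, 6 of 32, were 1 with DESeq2 and 1 to 6 with a library left out. Regulators past the threshold were 1 with DESeq2, and partners were 0 to 1 with a library left out. The median Hox log2 fold change lay between 0.07 and 0.22 with a library left out, and the difference in the share of groups 9 to 13, -0.135 percentage points in longfin minus wildtype, between -0.543 and 0.273. It was 0.176 without longfin heterozygous replicate 1, and leaving out wildtype replicate 2 gave 0.273. The cause of these shifts was not tested. Scaling per kilobase of coding sequence was not run, because no lengths were used here.

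With the replicate number as a block, counts were 794 for all genes, 0 for Hox genes past the threshold and 10 for Hox genes at an unadjusted p under 0.05 (31.2%, with *hoxa13b* the only lower one, beside 15.9% of all genes). Regulators past the threshold were then 3 of 31 (CYP26C1, *kdm6al* and KDM6B) and partners 1 of 15 (*msx3*), beside 794 of all 18366 genes tested. No label says that the numbers mark shared animals or days. Deviations of same-numbered libraries from their genotype means correlated at 0.233 across 18366 genes, which with 2 pairs is not taken as pairing. The interval of *hoxd13a*, with 99 reads over all libraries, ran from -1.61 to 0.66.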
